A study of Mus musculus with 2 samples.

Results

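The 10 genes examined, Tpm1, Tpm2, Cald1, Flna, Vcl, Actn1, Csrp1, Csrp2, Tgfb1i1 and Synpo2, encode proteins of the actin cytoskeleton that muscle shares with other mesenchymal cells. They were taken by name, through the transcript accession of each array probe, which gave 20 of the 39396 probes measured on both arrays. Of these, 18 were bright enough to be tested, at least 1 for each gene, so the 10 genes were described among 20629 genes and 25934 tested probes in the whole series. Probe sequences were not used here, so hybridisation of near relatives such as the other tropomyosins was not checked. RNA came from ureters of NMRI mouse embryos at stage E14.5. The ureters labelled Tbx2/Tbx3cDKO, here the labelled knockout, carried Tbx18(cre/+) and were fl/fl both for Tbx2 and for Tbx3, which encode T-box repressors. Their Cre recombinase is expressed from Tbx18, a gene active in progenitors of the ureteric mesenchyme, so cells outside that lineage are not deleted by design. The control ureters were Tbx18(+/+), so without Cre, and were fl/? for Tbx2 and fl/? for Tbx3, where the second allele is unspecified. There were 2 two-colour arrays, each with 1 knockout and 1 control RNA. The knockout was in AlexaFluor647 for the female pair and in AlexaFluor555 for the male pair, so an effect of sex and one of the dye cannot be told apart. The sources used here do not say how many embryos gave each RNA. All p-values measure only the spread between these samples.

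Serum response factor (SRF) is a transcription factor that binds the CArG box in DNA. It works with different partners: myocardin in cardiac and smooth muscle, and the myocardin-related factors MRTF-A and MRTF-B in many cell types, where these respond to the pool of unpolymerised actin. Contractile genes of smooth muscle and cytoskeletal genes of many other cells are known SRF targets. In the embryonic ureter, mesenchymal cells next to the urothelium become the smooth muscle coat, while outer cells form connective tissue.

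The genetic labels were checked first. Tbx3 had a log2 fold change of -1.09 ± 0.10 (labelled knockout over control, SD, n = 2 pairs; limma, adjusted p = 0.000623). Tbx2 was higher, at 0.86 ± 0.12 (adjusted p = 0.00184), which goes against its label at the transcript level. A probe outside the deleted part would check nothing, and the position of neither probe is known here. Directions below are those of the ureters labelled knockout. Tbx18 was at 0.15 ± 0.0011 (adjusted p = 0.394). No spot was saturated, 64.3% to 71.6% of spots per channel were well above background, and the 4 spots of a probe had a median SD of 0.0693 log2 units (female) and 0.063 (male).

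All 10 genes had a brightest probe well above background in both RNAs of both pairs, so their transcripts were present in knockout and in control ureters. These are whole-ureter RNAs, in which fewer cells of a type and less RNA per cell cannot be told apart, and they do not show which cells made a transcript. Taking each gene by its brightest probe, 7 of the 10 fell in the labelled knockout (Synpo2, Tpm2, Tgfb1i1, Csrp1, Vcl, Cald1 and Flna), 0 rose, and Tpm1, Csrp2 and Actn1 did not pass (limma, adjusted p under 0.05 over 25934 probes). Over all 20629 genes, 1.91% were lower and 2.02% were higher by the same rule, 3.94% in either direction. Of the 18 tested probes, 10 fell, 0 rose and 8 did not pass, beside 1.92% lower and 1.88% higher over all tested probes. The 10 include a dim Tgfb1i1 probe that was kept through its control RNAs alone, which favours a lower value. Differences between probes of 1 gene passed in 0 of 8 pairs (0 also at an unadjusted p under 0.05), beside 0.226% of 5305 such pairs on the array. The levels remaining in the 7 genes ran between 35.7% of control for Synpo2 and 76.3% for Flna. Only the calls of Synpo2 and Tpm2 held under every one of 13 alternative ways of processing. The other 5 calls ended with the scanner software's processed signals or the deposited value table in place of the background correction and loess curve. They also ended with median centring in place of the loess curve alone, where the background correction was kept. In these settings their values lay between -0.33 and -0.49. All genes together also had fewer calls there, as given with the alternatives.

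**Figure D1:**
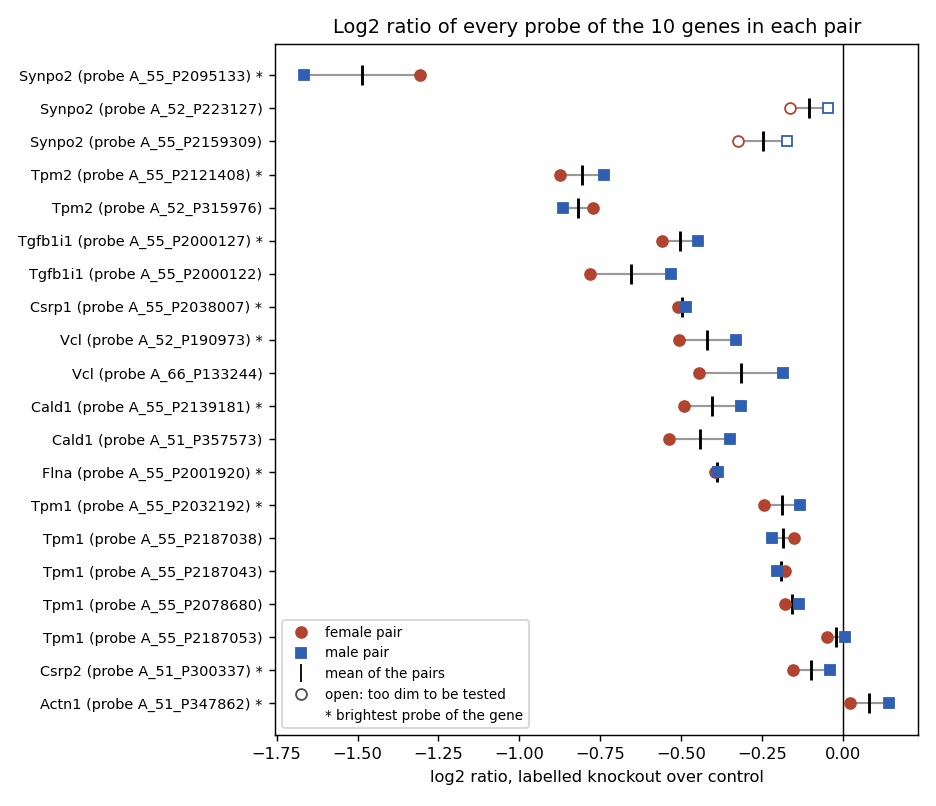
The log2 ratio (labelled knockout over control, horizontal axis) of each of the 20 probes is shown for the female pair (circles) and the male pair (squares), with a bar at their mean, an asterisk at the brightest probe of each gene and open symbols for the 2 dim Synpo2 probes that were not tested. Synpo2 and Tpm2 lie farthest below 0, and the 5 Tpm1 probes lie between -0.24 and 0.01 in either pair.

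The median log2 fold change of the 10 genes was -0.41 (female pair alone -0.50, male pair alone -0.36), against -0.0021 over all genes. On normalized log2 intensities of the brightest probe, 9 of the 10 genes had both knockout RNAs below both control RNAs, with Actn1 as the exception. Over all genes, 17.7% showed that pattern. The log2 ratio was below 0 in both pairs for 9 of 10 genes and for 28.2% of all genes. Among the 7 genes that fell, the female pair had the larger fall in 6 and the male pair in 1, Synpo2.

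**Figure D2:**
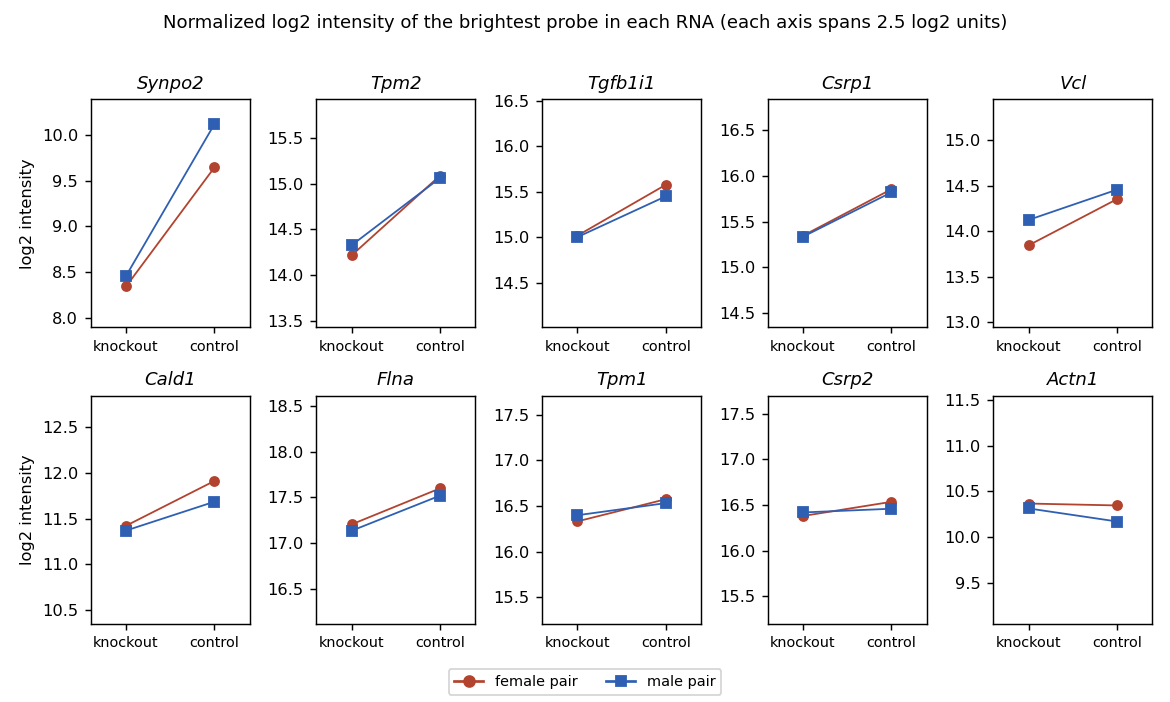
Normalized log2 intensity (vertical axes, each spanning the same number of log2 units) of the brightest probe of each gene is drawn for the knockout RNA and the control RNA of the female pair (circles) and the male pair (squares), joined within a pair. The lines climb to the control side in every panel except Actn1, steeply for Synpo2 and Tpm2 and little for Tpm1 and Csrp2.

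The promoters known to be bound by SRF hold the CArG box, which is a pair of C, then 6 letters that are each A or T, then a pair of G. RefSeq windows of 250 bases before to 50 bases after a transcript start (GRCm38.p6) were read for 8 of the 10 genes, 10 windows in all. Csrp2 and Tgfb1i1 had no window in that table. A CArG box was present in 1 of the 10 windows, that of Vcl, and in 1.63% of all 32851 windows. Its sequence is shown because it was the single match among the 10 windows read, and the capitals mark the CArG box (chr14:20929148-20929447, GRCm38.p6, plus strand, 5′ to 3′).
Vcl: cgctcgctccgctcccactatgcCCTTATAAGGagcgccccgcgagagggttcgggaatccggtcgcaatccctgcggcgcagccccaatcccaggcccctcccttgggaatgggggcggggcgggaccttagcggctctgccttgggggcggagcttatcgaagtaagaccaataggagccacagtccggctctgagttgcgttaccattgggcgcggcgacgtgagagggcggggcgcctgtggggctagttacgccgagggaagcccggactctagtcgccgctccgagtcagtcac

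The first base of that box lies 227 bases before the annotated start. Windows of some further genes on the lists used below, chosen by hand, were also read. Those of Srf and Myl9 held boxes of the same kind, and those of Cnn1, Mylk, Kcnmb1, Acta2, Tpm3 and Tpm4 held none. The boxes are printed with the core letters in capitals to show how close they are to that of Vcl.
Vcl: ccTTATAAgg
Srf, 82 bases before the start: ccATATAAgg
Srf, 62 bases before the start: ccATAAAAgg
Myl9, 161 bases before the start: ccTAATAAgg
Allowing 1 core letter other than A or T added no member and gave 9.98% of all windows. Among the further genes it took in sites of Tpm3, a second site of Myl9 and 2 sites of the smooth muscle actin gene Acta2. The Acta2 site 84 bases before its start is printed here.
Acta2: ccCTATATgg
The MCAT motif of TEAD factors (GGAATG or CATTCC, so both strands) was in 4 of the 10 windows, those of Cald1, Flna, Tpm1 and Vcl, and in 14.7% of all windows. A match is a description of these letters, not of binding, and CArG boxes in introns or farther upstream lie outside the windows.

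Tropomyosins are coiled-coil proteins that lie along actin filaments and set which other proteins can reach them. Tpm2, the beta tropomyosin, fell on both of its probes. The brighter probe had log2 intensities of 14.22 (female) and 14.33 (male) in the labelled knockout, against 15.09 and 15.06 in their controls (female first here and in what follows). The knockout and control levels did not overlap, and the knockout held 57.2% of the control level. Its log2 fold change was -0.81 ± 0.097 (SD, n = 2 pairs; limma, adjusted p = 0.00212), and the second probe gave -0.82 ± 0.066 (adjusted p = 0.00164). Over the alternatives the brighter probe stayed between -0.81 and -0.77, with adjusted p between 0.000381 and 0.03.

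Tpm1, the alpha tropomyosin, is made as many isoforms by alternative exons, and the array carried 5 probes drawn on 4 of its transcripts. None of the 5 passed. The brightest had log2 intensities of 16.33 and 16.40 in the labelled knockout, against 16.57 and 16.53 in control. The knockout lay below control in both pairs by a margin that did not pass, at -0.19 ± 0.078 (limma, adjusted p = 0.286; unadjusted 95% interval -0.36 to -0.02). Of the others, 3 gave means between -0.19 and -0.16. The dimmest of the 5 was at -0.02 ± 0.039, with -0.05 in females and 0.01 in males, and turned to 0.01 with median centring. Its difference from the brightest Tpm1 probe was 0.17, with a 95% interval of -0.02 to 0.35 (limma over all probe pairs, adjusted p = 0.816), so a difference among Tpm1 transcripts was not detectable with 2 arrays. The log2 ratio of Tpm2 minus that of Tpm1 was -0.63 and -0.60, with a mean of -0.62 (95% interval -0.80 to -0.43; limma on every gene minus Tpm1, adjusted p = 0.00205, where 1.24% of genes were lower). That adjusted p was 0.871 with median centring. The interval takes in only part of the uncertainty of the Tpm1 value. This comparison was added after the values had been seen, and Tpm2 was not tested against Tpm3 or Tpm4.

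Caldesmon, from Cald1, binds actin, tropomyosin and myosin and restrains the actomyosin ATPase. The brighter of its 2 probes had log2 intensities of 11.42 and 11.37 in the labelled knockout, against 11.91 and 11.69 in control. Both knockout values were below both control values, and the log2 fold change was -0.40 ± 0.12 (limma, adjusted p = 0.038). The second probe gave -0.44 ± 0.13 (adjusted p = 0.0281). They differed by -0.04 (95% interval -0.22 to 0.14). Of 13 alternatives, 3 ended the call, with adjusted p up to 0.335.

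Synpo2, also known as myopodin, bundles actin and is found at Z-discs and in smooth muscle. It had the largest fall of the 10 genes and stood 22nd from the lowest among all genes. The tested probe had log2 intensities of 8.34 and 8.46 in the labelled knockout, against 9.65 and 10.12 in control. The separation of the groups was wider than the spread within either, and 35.7% of the control level remained. The log2 fold change was -1.48 ± 0.25 (SD, n = 2 pairs; limma, adjusted p = 0.000575), and it ran between -1.74 and -1.44 over the alternatives. The other 2 Synpo2 probes, assigned to the same transcript, were dim, with 25% to 100% of spots well above background depending on the RNA, and were not tested. Their mean log2 ratios were -0.11 and -0.25, below 0 in both pairs. Ratios of probes this close to background are drawn towards 0, so they are not set against the tested probe. The size of the Synpo2 fall comes from 1 probe.

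Filamin A, from the X-linked gene Flna, crosslinks actin filaments into networks and ties them to membrane receptors. Its single probe had log2 intensities of 17.21 and 17.14 in the labelled knockout, against 17.60 and 17.52 in control. The pairs were close to each other, and both showed the knockout lower. The log2 fold change was -0.39 ± 0.0068 (limma, adjusted p = 0.028). Since the SD between 2 pairs is itself poorly known, limma's standard error of 0.067, pooled over probes, is the better guide to its precision. With a variance model that follows brightness, the value was the same and the adjusted p rose above the threshold, so 4 of 13 alternatives ended this call, with adjusted p up to 0.817. Alpha-actinin 1, from Actn1, is the non-muscle crosslinker of parallel actin filaments. It had log2 intensities of 10.37 and 10.31 in the labelled knockout, against 10.35 and 10.17 in control. Here the groups overlapped. Its log2 fold change was 0.08 ± 0.086 (adjusted p = 0.791), with a 95% interval of -0.09 to 0.25.

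Vinculin, from Vcl, links talin and catenins at adhesion sites to actin. The brighter of its 2 probes had log2 intensities of 13.85 and 14.12 in the labelled knockout, against 14.35 and 14.46 in control. The knockout was lower in both pairs, at -0.42 ± 0.12 (limma, adjusted p = 0.0331). The dimmer probe gave -0.32 ± 0.18 and did not pass (adjusted p = 0.122), although the probes did not differ detectably (0.10, 95% interval -0.08 to 0.29). With the mean of the 2 probes, the Vcl call ended, as it did in 3 other alternatives (adjusted p up to 0.188).

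Tgfb1i1 encodes HIC-5, a paxillin relative with LIM domains that sits at focal adhesions and enters the nucleus as a cofactor. The brighter of its 2 probes had log2 intensities of 15.02 and 15.00 in the labelled knockout, against 15.58 and 15.45 in control. The groups did not overlap. The log2 fold change was -0.50 ± 0.079 (limma, adjusted p = 0.0127), and 3 of 13 alternatives ended the call (adjusted p up to 0.104). The dim probe was well above background in 0% and 50% of its spots in the knockout RNAs, at log2 means of 6.86 in the knockout and 7.52 in control. Its log2 fold change was -0.66 (95% interval -0.85 to -0.46; limma, adjusted p = 0.00866), a measured level 1.58-fold lower in the labelled knockout. The probe passed the filter on dim probes through its control RNAs alone, which favours a lower value. Its call is therefore no separate evidence of a fall. This call ended with the deposited value table (adjusted p = 0.181). Ratios this close to background are drawn towards 0, so the size of the fall on the dim probe may be understated. No comparison of that size with that of the bright probe was drawn.

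Csrp1 and Csrp2 encode small proteins with LIM domains that bind alpha-actinin and zyxin and can act with SRF as nuclear cofactors. Csrp1 fell, and Csrp2 did not pass. The single Csrp1 probe had log2 intensities of 15.35 and 15.34 in the labelled knockout, against 15.86 and 15.82 in control. All 4 values showed a gap between the groups wider than that within them. The log2 fold change was -0.50 ± 0.017 (limma, standard error 0.067, adjusted p = 0.0112), and it lost the call in 3 of 13 alternatives (adjusted p up to 0.15). Csrp2, which was first described as a smooth muscle LIM protein, had log2 intensities of 16.38 and 16.42 in the labelled knockout, against 16.54 and 16.46 in control. Its knockout values lay just under its control values, and the log2 fold change of -0.10 ± 0.081 did not pass (adjusted p = 0.707, 95% interval -0.27 to 0.07). The log2 ratio of Csrp1 minus that of Csrp2 was -0.35 and -0.45, with a mean of -0.40 (95% interval -0.59 to -0.21; limma on every gene minus Csrp2, adjusted p = 0.0215, where 1.38% of genes were lower). This difference did not pass with the deposited value table (adjusted p = 0.0636) or with median centring (adjusted p = 1). Its interval takes in only part of the uncertainty of the Csrp2 value. The comparison of Csrp1 with Csrp2 was also added after the values had been seen.

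Relatives of the 10 genes were compared next. Of 13 measured paralogues, 1 fell, 0 rose and 12 did not pass, beside 1.91% lower and 2.02% higher over all genes. The one that fell was Ctnna2, a neural alpha-catenin related to vinculin, at -0.71 ± 0.00014 (limma, standard error 0.067, adjusted p = 0.00265). Among the tropomyosins, Tpm4 was at -0.32 ± 0.20 and Tpm3 at 0.07 ± 0.046. The muscle filamin Flnc was at 0.14 ± 0.14. Among the alpha-actinins, Actn2 was at -0.13, Actn3 at -0.13 and Actn4 at -0.05. Paxillin (Pxn) was at -0.02, leupaxin (Lpxn) at -0.03, the vinculin relative Ctnna1 at -0.03, Synpo at 0.07 and Synpo2l at -0.12. The median over the 13 was -0.03.

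The difference from a paralogue was itself tested for 2 further members, in pairs chosen after the values had been seen. Tgfb1i1 minus Pxn was -0.54 and -0.43 (mean -0.48, 95% interval -0.65 to -0.32; limma on every gene minus the paralogue, adjusted p = 0.0158, with 1.73% of genes lower). Synpo2 minus Synpo was -1.33 and -1.78 (mean -1.56, 95% interval -1.79 to -1.32; adjusted p = 3.36e-05, with 3.24% of genes lower). For Tgfb1i1 the adjusted p was 0.383 with median centring and 0.0557 with the processed signals. Synpo2 kept the call in every alternative. In all 4 differences from a paralogue, the paralogue's uncertainty enters only through its own 2 ratios. Those of Pxn had an SD of 0.00044, beside a limma standard error of 0.067. The interval of Tgfb1i1 minus Pxn is thus about as wide as that of Tgfb1i1 alone (-0.67 to -0.34). These intervals and adjusted p-values therefore understate the uncertainty of a difference between 2 genes.

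**Figure D3:**
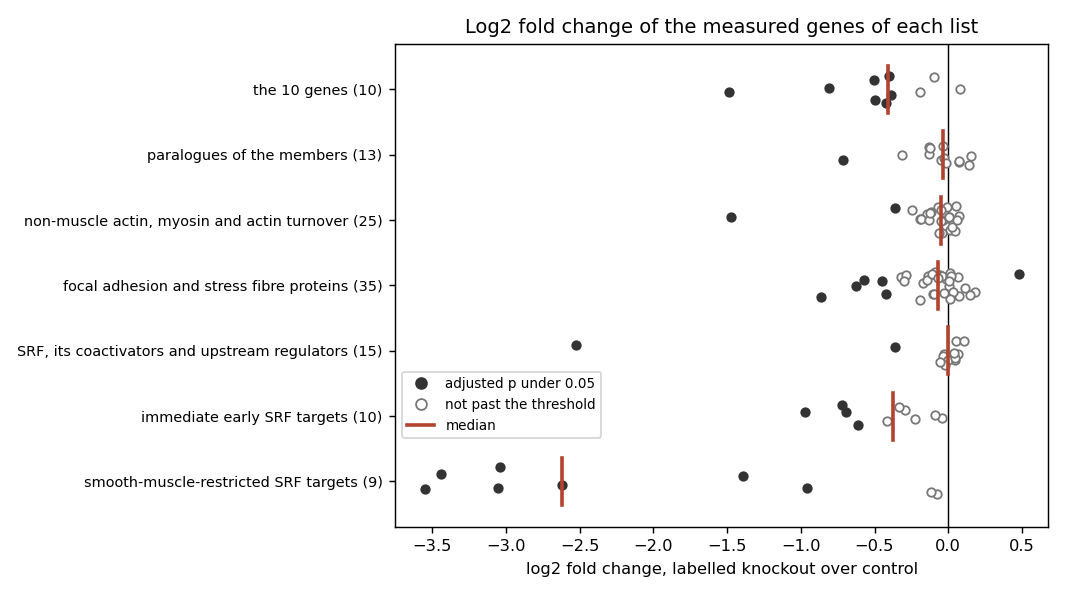
Each point is the log2 fold change (labelled knockout over control, horizontal axis) of a measured gene by its brightest probe, filled where the adjusted p was under 0.05, with a bar at each list's median and the number of measured genes in brackets. The 10 genes have a median of -0.41, their paralogues one of -0.03, and the list named smooth-muscle-restricted SRF targets one of -2.62.

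Lists of other actin cytoskeleton genes that most cells use were read beside the 1.91% of all genes that were lower. Of 25 genes for non-muscle actin, myosin and actin turnover, 2 fell, 0 rose and 23 did not pass, with a median of -0.05. Myl9, a regulatory myosin light chain that smooth muscle also uses, was at -1.47 ± 0.12 (limma, adjusted p = 0.000221), and destrin (Dstn), which severs actin filaments, was at -0.36 ± 0.052 (adjusted p = 0.0413). Of 35 genes for focal adhesion and stress fibre proteins, 5 fell, 1 rose and 29 did not pass, with a median of -0.07. The LIM protein Fhl2 was at -0.86 ± 0.10 (adjusted p = 0.00162), Pdlim3 at -0.62 ± 0.16 and calponin 2 (Cnn2) at -0.57 ± 0.045. Palld at -0.45 and Fhl1 at -0.42 were the other 2 that fell. Pdlim4, another PDZ and LIM protein, rose, at 0.48 ± 0.11 (limma, adjusted p = 0.0181). That call ended with the processed signals, median centring and the deposited values (adjusted p between 0.0616 and 0.0816).

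Most SRF targets listed as smooth-muscle-restricted had values farther below 0. That name is a list label, and whole-ureter RNAs cannot show such a restriction for each gene. Of 9 measured genes on this list, 7 fell, 0 rose and 2 (Smtn and Des) did not pass, beside 1.91% lower and 2.02% higher over all genes. Actg2 was at -3.55, Myh11 at -3.44, Cnn1 at -3.05 and Acta2 at -3.04, which left 8.53% to 12.2% of the control level. The summed normalized intensity of all 9 genes, Smtn at -0.12 and Des at -0.08 included, was 59944 (female) and 60104 (male) in the labelled knockout, against 200372 and 254871 in control. For the 10 cytoskeletal genes the sums were 431902 and 434871 in the labelled knockout, against 561321 and 537933 in control. Both lists were lower in the labelled knockout. The smooth muscle list had its lower median in the male pair (female -2.43, male -2.81) and the 10 genes had theirs in the female pair. The part of the smooth muscle transcripts in the values of the 10 genes was not tested, nor was either list set against the other.

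Among SRF and its partners, 2 of 15 measured genes fell, 0 rose and 13 did not pass, with a median of 0.0010. The counts in this paragraph stand beside 1.91% lower and 2.02% higher over all genes. Myocardin (Myocd) was at -2.53 ± 0.11 (limma, adjusted p = 4.72e-05), which left 17.4% of the control level. Srf itself was at -0.36 ± 0.094 (adjusted p = 0.0473), a call that 6 of 13 alternatives ended. Both myocardin-related factors, which work in many cell types, did not pass: Mrtfa was at -0.03 and Mrtfb at -0.04. Immediate early genes, which SRF drives together with ternary complex factors, had 4 that fell of 10, 0 that rose and 6 that did not pass, with a median of -0.37. Fosb was at -0.97 ± 0.53, Fos at -0.72 ± 0.38, Egr1 at -0.70 ± 0.35 and Nr4a1 at -0.61 ± 0.16, with adjusted p between 0.00997 and 0.0276 (limma). The falls were larger in the female pair: without it, Fosb was at -0.60, Fos at -0.46, Egr1 at -0.45 and Nr4a1 at -0.50. The list's median was -0.62 (female) and -0.29 (male), and each of the 4 calls ended in 2 or 3 alternatives.

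Markers of the ureter's own tissues, and of other tissue that the dissection could hold, were read beside these values. By the same rule, 1.91% of all genes were lower and 2.02% were higher. Of 16 urothelial markers 0 passed (Upk1b at -0.29, Upk3a at 0.27, the second past with trended eBayes, adjusted p = 0.0456), with summed intensities of 275068 and 281394 in the labelled knockout, against 310149 and 291252 in control. Of 13 neural markers 4 were higher (Fabp7 at 0.71, Hand2 at 0.70), of 8 pericyte markers 1 (Kcnj8 at 0.44, with Abcc9 at 0.46 not past) and of 8 erythroid markers 2 (Hbb-b1 at 0.43, with Alas2 at 0.35 not past). The sums were 54283 and 51878 (neural), 61060 and 57988 (pericyte) and 790253 and 704852 (erythroid) in the labelled knockout, against 51681 and 51925, 56186 and 50676, and 537449 and 660991 in control. The calls of Kcnj8 and Hbb-b1 ended in 3 and 4 alternatives, that of Hand2 in 2, and Abcc9 passed in 3 (adjusted p between 0.0326 and 0.0473). No endothelial marker of 13 passed (Egfl7 at 0.32, Kdr at 0.30) and no immune marker of 12 (Lyz2 at 0.32, Ptprc at 0.29), although Lyz2 passed in 3 alternatives and Ptprc in 1. Log2 ratios were above 0 in both pairs for 11 of the 13 endothelial and 10 of the 12 immune markers. The same held for 9 of the 13 neural, 7 of the 8 pericyte and 6 of the 8 erythroid markers. Each of these lists had 0 markers below 0 in both pairs. Among all 20629 genes, 5698 were above 0 in both. Sums were 153090 and 174542 (endothelial) and 47947 and 49252 (immune) in the labelled knockout, against 143468 and 143593, and 43999 and 45140 in control. Of 11 ureteric mesenchyme markers 2 were lower, Foxf2 at -0.61 and Foxf1 at -0.49 (a call that 3 alternatives ended). Another 2 were higher, Osr1 at 0.43 and Bmp4 at 0.355. The sums of this list were 338365 and 335947 in the labelled knockout, against 319153 and 309655 in control. Skeletal and cardiac muscle use Tpm1, Tpm2 and Synpo2 as well. Of 15 such markers 3 were lower, Tnnt2 at -2.14, Acta1 at -2.06 and Actc1 at -1.26, and 12 did not pass. Log2 ratios were below 0 in both pairs for 11 of the 15 and above 0 in both for 2. Among all genes, 28.2% were below 0 in both. The median of this list was -0.24. The skeletal muscle regulators Myod1 at -0.15 and Myog at -0.24 did not pass, and Myf5, Neb and Ckm were not measured above the filter. Control log2 intensities were 15.25 and 15.43 for Actc1, but only 7.46 and 7.56 for Myod1 and 7.97 and 7.80 for Myog. The summed intensity of this list was 34125 and 28047 in the labelled knockout, against 56713 and 63245 in control. The part of any of these in the values of the 10 genes was not tested.

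**Figure D4:**
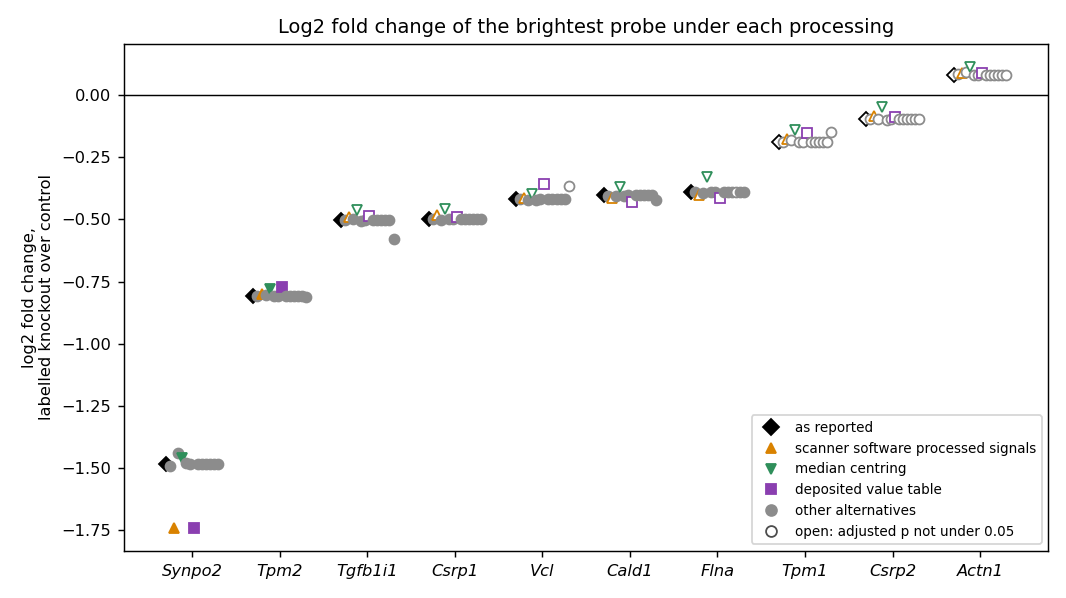
The log2 fold change (labelled knockout over control, vertical axis) of the brightest probe of each gene is shown as reported (diamond) and under the alternatives, with open symbols where the adjusted p was not under 0.05. Values keep their sign for all 10 genes, while 5 of the 7 calls open up with the processed signals, median centring and the deposited value table.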

How the data were processed

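The two-colour Agilent arrays were read by Feature Extraction 10.7.3.1, as per the submitters' processing notes. The deposited scanner files give, per the file headers, the intensity of each spot and its local background for the green dye (AlexaFluor555) and the red dye (AlexaFluor647), not normalized, and processed intensities, which the scanner software had corrected for background and dye. The deposited value table holds signed folds, treated as scores. Its making was not given in the sources used here. Turned to knockout over control, its log2 values correlated with the processed signals at 0.984 (female) and 0.986 (male) over 24302 bright probes, and at 0.576 and 0.456 over all 39396, which gives its direction. Its median was 1 in both columns, and its floor and centring are unknown.

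Mean intensities were corrected with normexp (offset 50), and normalized by loess within each array without control and filler spots. Spots marked non-uniform (186 and 223) were left out, and each probe's 4 spots were averaged, then turned to knockout over control. A probe was kept if more than 0.5 of its spots exceeded background clearly, by the software's mark, on both arrays for the knockout RNA or on both for the control RNA. Levels are log2 intensities after Aquantile normalization between arrays. Accessions were named through a RefSeq table of GRCm38.p6 (28328 probes matched, and for 11101 the file's own name was used). No build of the array is stated in the sources used here, so probes and genes are printed without coordinates, and the coordinates of the Vcl promoter window are those of its RefSeq sequence.

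Log2 ratios were fitted per probe in R 4.3.3 with limma 3.58.1 (lmFit, eBayes) over 25934 probes, with two-sided Benjamini-Hochberg adjusted p under 0.05. Residual degrees of freedom were 1 and prior ones 5.65, so p-values rest mostly on the pooled spread, and 2 arrays limit the precision of every value. Probes of a gene were compared in a fit over 5305 probe pairs. Differences from paralogues used a fit over all genes minus the paralogue, a test added after the data had been seen. That fit takes in the paralogue's spread between its 2 ratios only, so it understates the uncertainty of the difference. Steps were tested on simulated data. Both headers gave the same scan time and the same rounded barcode.

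The 10 genes and the 15 other lists were chosen with earlier results of these data known. Named genes were the 10, Tbx2, Tbx3, Tbx18, Srf, Myocd, all measured paralogues, up to 4 called genes with the largest values of each other list, or the 2 largest where none passed, and the 2 largest of each marker list. Palld, Fhl1, Smtn, Des, Mylk, Kcnmb1, Mrtfa, Mrtfb, Osr1, Bmp4, Actc1, Myod1, Myog, Myf5, Neb and Ckm were named after their values had been seen. For 1 gene under that rule, values are not reported here. With 2 arrays no likeness of pattern between genes was measured.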

Additional observations from a re-analysis of the deposited data

Results flagged for a closer look

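Values of opposite sign in the female and the male pair were looked for among the 10 genes and the other named genes. With 1 pair per sex and exchanged dyes, none of these differences (male minus female) was tested. The dimmest Tpm1 probe was at -0.0482 (female) and 0.007 (male), a difference of 0.0552. Among the paralogues, Actn4 had -0.20 (female) and 0.11 (male), a difference of 0.31, Ctnna1 had -0.14 and 0.07, a difference of 0.21, and Lpxn had 0.05 and -0.12, a difference of -0.17. The endothelial marker Egfl7 had -0.20 and 0.85, a difference of 1.06.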

How the results depend on the processing

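Of 18 tested probes of the 10 genes, 17 kept their sign in every alternative with a test. The exception was the dimmest Tpm1 probe, at 0.013 with median centring. Pxn (0.0064) and Ctnna1 (0.0118) also changed sign with median centring, and Synpo (-0.012) with the mean of a gene's probes. None of these was past the threshold either way. Of the 10 genes, 2 were lower instead of 7 with the processed signals, 2 with median centring, 2 with the deposited values and 2 at an adjusted p under 0.01. All genes were not counted at that stricter threshold, so this last drop cannot be set against theirs. All genes lower numbered 235 with the processed signals, 164 with median centring and 161 with the deposited values, against 395 as reported, and all genes higher 271, 161 and 164, against 417. In those 3 settings 1 gene of the SRF list was lower, likewise 1 with non-uniform spots kept and 1 in either fit per gene. The actin and myosin list had 1 lower in the same 3 settings and 1 with trended eBayes, and the focal adhesion list had 2 in each of the 3. The immediate early list had 1 lower with the processed signals, 2 with median centring, 0 with the deposited values and 2 with robust eBayes. Differences between probes of the 10 genes passed for 1 pair with the processed signals and 2 pairs with no filter on dim probes, each with a probe close to background. The cause of these changes was not tested. Leaving out 1 pair leaves 1 array and no test, and the median of the 10 genes was then -0.50 (female pair alone) or -0.36 (male pair alone). Every fit was paired, since each ratio is within an array and a pair, and no unpaired fit was made.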
